A study of Rattus norvegicus with 12 samples.

Results

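The genes described here are 56 rat genes that drive the cell cycle and copy DNA, chosen by symbol from a list of cyclins, cyclin-dependent kinases (CDKs), CDK inhibitors, replication fork proteins, nucleotide-making enzymes and proteins of mitosis. Of these, 55 were found among the 32623 genes in the files, and all 55 passed the filter on low counts that kept 13539 genes. Ccnb2 was not analysed here. Counts per gene and library ran from 12 to 6675. The samples were 12 libraries of polyadenylated RNA from rat cells labelled hepatic stellate cells. They were separated on a centrifugation gradient out of livers of rats with cirrhosis caused by inhaled CCl4. For 24 h the cells shared medium, through a Transwell membrane, with 15000 viable human amniotic epithelial cells (hAEC, 4 libraries), with as many human amniotic mesenchymal stromal cells (hAMSC, 4 libraries), or with vehicle (Veh, 4 libraries). The cells of all 3 groups came from cirrhotic rats, and the human cells stayed behind the membrane. The labels give no strain, sex or age, and do not say which libraries shared a rat or a culture. The tests therefore measure spread among libraries, and that spread may be technical.

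All 3 groups were split over 2 library sets. The sets were found in an earlier analysis of these data and are not in the labels: the lower-numbered set holds libraries 3, 4, 7, 8, 17 and 18, and the higher-numbered set holds libraries 11, 12, 15, 16, 19 and 20, with 2 libraries of each group in each set. Total counts per library ran from 27382705 to 34922180. The labelled cell type was checked against defining markers, as summed counts per 1000000 counts of the library (CPM, not adjusted for gene length). The 12 stellate cell and myofibroblast genes together had 20.3 to 26.4 CPM in the higher-numbered set and 63.5 to 106 CPM in the lower-numbered set. Most of the sum in the lower-numbered set was Reln, with 6.63 to 15.3 CPM in the higher-numbered set and 54.8 to 94.8 CPM in the lower-numbered set, while 6 of the 9 stellate genes tested lay higher in the higher-numbered set (median log2 difference 0.35). Hhip, a marker of quiescent stellate cells, was at 0 in all 12 libraries. The 14 macrophage genes found together had 50650 to 52870 CPM in the higher-numbered set and 28180 to 30150 CPM in the lower-numbered set. They did not share one direction: 10 lay higher in the higher-numbered set and 4 lower. Their log2 differences ran from -2.41 to 3.59, with a median of 0.73. The cells are therefore called by their label and not by a type.

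A cell commits to division in G1, when D cyclins (Ccnd1, Ccnd2, Ccnd3) switch on the kinases Cdk4 and Cdk6, and when E cyclins then switch on Cdk2. This frees E2F factors such as E2f1 to raise genes of DNA replication. CDK inhibitors such as Cdkn1b (p27) and Cdkn2c (p18) hold these kinases back. Before S phase, Cdc6 and Cdt1 load the Mcm helicase to license the origins. In S phase the DNA is copied by polymerases with the clamp Pcna and ligases. Genes of G2 and mitosis rise later, when the DREAM complex no longer represses their promoters and B-Myb and FoxM1 activate them. In cirrhotic liver, stellate cells and macrophages can both divide.

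Between the library sets, mRNA of all 24 mitotic genes among the 55 stood higher in the higher-numbered set, while the D cyclins Ccnd1 and Ccnd2 and several replication genes stood lower. This is a description with no test, because the sets were found in the data. Every higher-numbered library stood above every lower-numbered library in 30 of 55 genes, against 24.8% of all genes tested, and below in 10 of 55, against 30.4% of all genes. Standing lower was thus less common among the 55 genes (18.2%) than among all genes. In the other 15 the sets overlapped. The median log2 difference, higher-numbered minus lower-numbered, was 0.70 over the 55 genes and -0.00 over all genes tested. In bulk samples, fewer cells of a type and less RNA per cell cannot be told apart. The macrophage sum, the stellate sum with its Reln counts and the endothelial sum below also differed between the sets, and their part in these differences was not tested.

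All 24 genes of the 3 mitotic roles were higher in the higher-numbered set, with no overlap between the sets. They comprised 8 genes of G2 and mitotic entry (median log2 difference 1.53), 9 of the kinetochore and anaphase control (1.09) and 7 of the spindle and cytokinesis (1.35). More than 2-fold higher were 20 of 55 genes, against 9.71% of all genes, and more than 2-fold lower was Ccnd1 alone, against 9.98% of all genes.

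**Figure D1:**
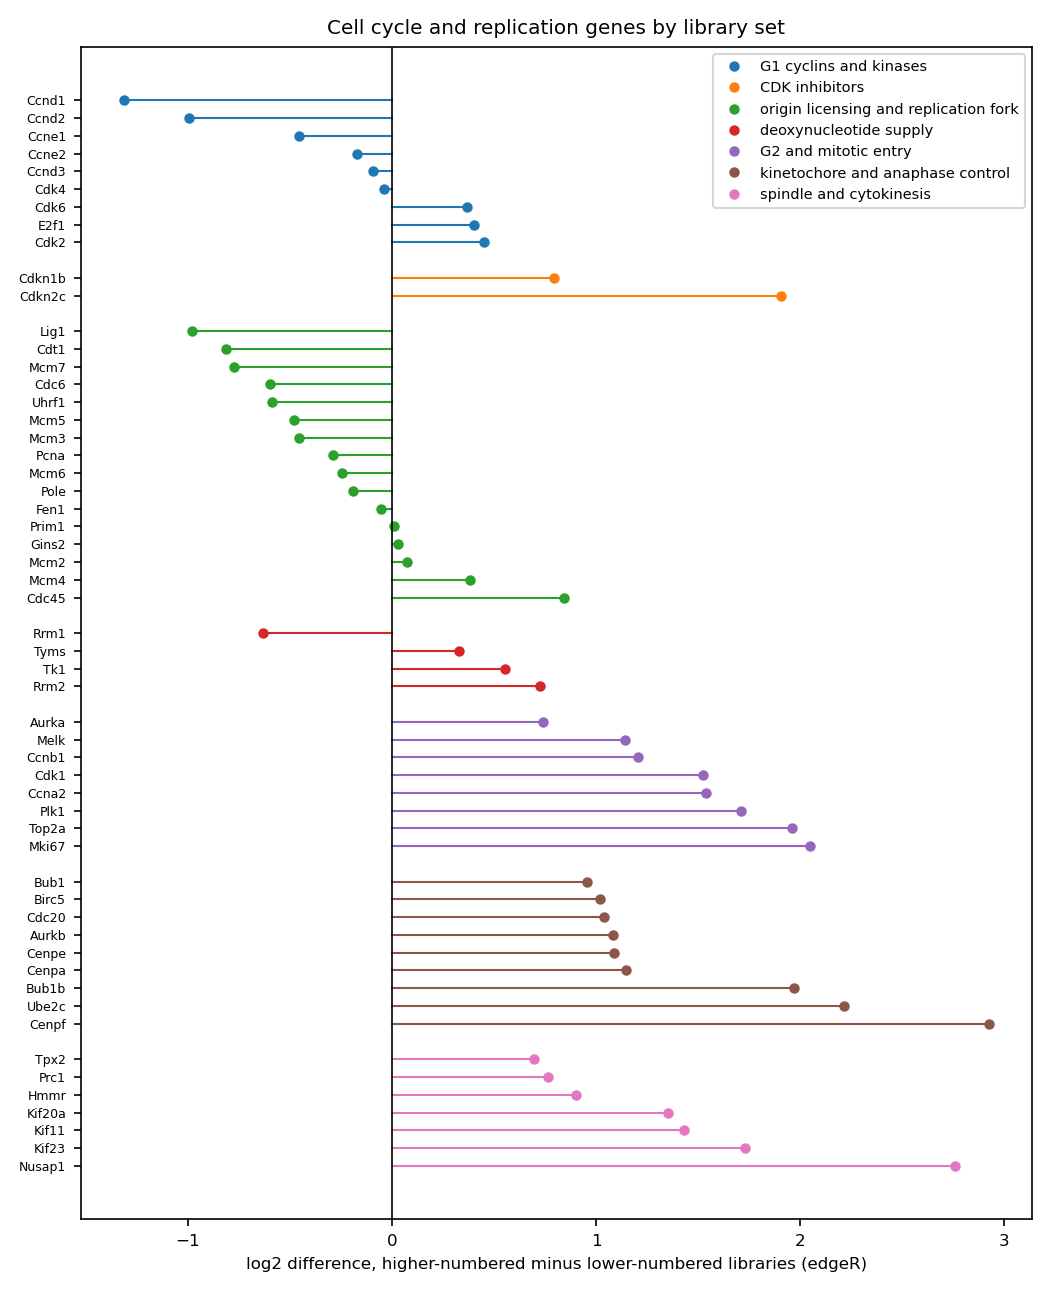
Log2 difference between the 6 higher-numbered and the 6 lower-numbered libraries (horizontal axis) for each of the 55 genes (1 point and line each), coloured by role. The mitotic genes lie between 0.70 and 2.92, and Ccnd1 lies lowest at -1.31.

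Among the mitotic genes, Cenpf, a kinetochore protein that appears in G2, stood furthest apart, 7.58-fold higher in the higher-numbered set. In that set Cenpf had 4.57 and 4.68 CPM with hAEC, 6.02 and 5.41 CPM with hAMSC and 4.33 and 3.93 CPM with Veh. Cenpf had 0.821 and 0.798 CPM with hAEC, 0.544 and 0.532 CPM with hAMSC and 0.475 and 0.731 CPM with Veh in the lower-numbered set. No library of the lower-numbered set reached 1 CPM, so its values there rest on few counts, with 13 in the lowest library.

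Nusap1, which binds spindle microtubules, was 6.76-fold higher in the higher-numbered set. It had 3.89 and 3.80 CPM with hAEC, 4.75 and 3.99 CPM with hAMSC and 3.47 and 4.00 CPM with Veh there. Nusap1 had 0.650 and 0.543 CPM with hAEC, 0.544 and 0.657 CPM with hAMSC and 0.694 and 0.532 CPM with Veh in the lower-numbered set. Within each set the 3 groups lay close together for Nusap1, and the sets were far apart.

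Ube2c, the ubiquitin-conjugating enzyme of the anaphase-promoting complex, was 4.64-fold higher, with 3.02 and 3.46 CPM with hAEC, 3.71 and 2.50 CPM with hAMSC and 2.61 and 1.98 CPM with Veh in the higher-numbered set. Its values in the lower-numbered set were 0.719 and 0.958 CPM with hAEC, 0.544 and 0.532 CPM with hAMSC and 0.694 and 0.399 CPM with Veh. Bub1b (BubR1), a spindle checkpoint kinase, was 3.91-fold higher, with 4.12 and 4.93 CPM with hAEC, 6.75 and 5.12 CPM with hAMSC and 4.88 and 4.32 CPM with Veh in the higher-numbered set. For Bub1b the lower-numbered set had 0.958 and 1.60 CPM with hAEC, 1.20 and 1.44 CPM with hAMSC and 1.02 and 1.63 CPM with Veh. For both genes the lowest higher-numbered library lay above the highest lower-numbered one.

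Mki67 (Ki-67), the coat protein of mitotic chromosomes that pathologists stain to count dividing cells, was 4.14-fold higher. It had 45.02 and 46.8 CPM with hAEC, 61.6 and 49.6 CPM with hAMSC and 42.8 and 43.2 CPM with Veh in the higher-numbered set. The lower-numbered set had 12.01 and 13.5 CPM with hAEC, 9.99 and 13.6 CPM with hAMSC and 11.7 and 10.8 CPM with Veh. Within the higher-numbered set both hAMSC libraries had more Mki67 than any other library.

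Top2a, the topoisomerase that untangles sister chromosomes, had 11.7 and 13.7 CPM with hAEC, 15.9 and 14.6 CPM with hAMSC and 10.99 and 10.7 CPM with Veh in the higher-numbered set. It had 3.22 and 4.85 CPM with hAEC, 3.12 and 3.82 CPM with hAMSC and 2.92 and 2.59 CPM with Veh in the lower-numbered set. The kinase of mitotic entry Cdk1 had 5.27 and 7.04 CPM with hAEC, 7.66 and 6.10 CPM with hAMSC and 6.73 and 5.40 CPM with Veh in the higher-numbered set. Both genes separated the sets in every library, by 1.96 for Top2a and 1.52 for Cdk1 on the log2 scale. For Cdk1, the lower-numbered set had 2.16 and 2.30 CPM with hAEC, 1.86 and 2.56 CPM with hAMSC and 2.41 and 2.39 CPM with Veh. Its partner cyclin Ccnb1 had 5.14 and 6.44 CPM with hAEC, 6.08 and 5.26 CPM with hAMSC and 5.36 and 4.50 CPM with Veh in the higher-numbered set and 2.26 and 2.23 CPM with hAEC, 1.57 and 3.47 CPM with hAMSC and 2.67 and 2.46 CPM with Veh in the lower-numbered set. The other mitotic genes among the 55 had log2 differences between 0.70 (Tpx2, a spindle assembly factor) and 1.73 (Kif23, a kinesin of the midbody).

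Genes that act before mitosis did not share one direction. Of 9 G1 cyclins and kinases, 1 was higher in the higher-numbered set with no overlap, 3 were lower and 5 overlapped. Of 16 genes of origin licensing and the replication fork, 2 were higher (Cdc45 and Mcm4), 6 were lower and 8 overlapped, with a median log2 difference of -0.27. Over all genes tested, 24.8% were higher and 30.4% lower with no overlap. The lower counts of both roles lay near that share. Of the 4 genes of deoxynucleotide supply, Tk1 was higher, Rrm1 was lower, and Tyms and Rrm2 overlapped.

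The D cyclin Ccnd1 was 2.49-fold lower in the higher-numbered set, with 67.6 and 73.8 CPM with hAEC, 89.4 and 80.6 CPM with hAMSC and 54.7 and 57.1 CPM with Veh. The lower-numbered libraries had 174 and 172 CPM with hAEC, 180.1 and 200.3 CPM with hAMSC and 168 and 176 CPM with Veh. Ccnd2 was 1.99-fold lower, with 20.6 and 24.5 CPM with hAEC, 25.8 and 23.7 CPM with hAMSC and 15.9 and 17.4 CPM with Veh in the higher-numbered set. For Ccnd1 and Ccnd2 every higher-numbered library lay below every lower-numbered one. The lower-numbered set had 40.9 and 41.7 CPM with hAEC, 43.4 and 52.7 CPM with hAMSC and 40.4 and 40.4 CPM with Veh for Ccnd2. The E cyclin Ccne1 had 1.99 and 2.70 CPM with hAEC, 3.31 and 2.36 CPM with hAMSC and 2.13 and 2.27 CPM with Veh in the higher-numbered set and 3.39 and 3.19 CPM with hAEC, 3.26 and 4.22 CPM with hAMSC and 3.51 and 3.19 CPM with Veh in the lower-numbered set, so that its sets overlapped. Ccnd3, the other D cyclin, and Cdk4, a kinase that D cyclins switch on, had log2 differences of -0.09 and -0.04.

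Lig1, the ligase that joins Okazaki fragments, was 1.97-fold lower in the higher-numbered set, with 88.1 and 90.1 CPM with hAEC, 106 and 95.02 CPM with hAMSC and 74.2 and 85.8 CPM with Veh. Lower-numbered libraries had 175 and 175 CPM with hAEC, 191 and 192 CPM with hAMSC and 175 and 182 CPM with Veh. The licensing factor Cdt1 was 1.76-fold lower, with 4.21 and 4.90 CPM with hAEC, 5.48 and 5.23 CPM with hAMSC and 3.95 and 4.47 CPM with Veh in the higher-numbered set and 8.18 and 7.28 CPM with hAEC, 7.39 and 10.5 CPM with hAMSC and 8.47 and 9.31 CPM with Veh in the lower-numbered set. All 3 of Lig1, Cdt1 and the helicase subunit Mcm7 had non-overlapping sets. Mcm7 was 1.71-fold lower, with 15.98 and 18.5 CPM with hAEC, 19.7 and 17.7 CPM with hAMSC and 14.8 and 17.6 CPM with Veh in the higher-numbered set. The lower-numbered set had 29.4 and 30.5 CPM with hAEC, 25.7 and 32.8 CPM with hAMSC and 30.2 and 35.3 CPM with Veh for Mcm7. Pcna, the sliding clamp, had 99.0 and 90.6 CPM with hAEC, 94.1 and 97.6 CPM with hAMSC and 101 and 81.5 CPM with Veh in the higher-numbered set and 121 and 127 CPM with hAEC, 112 and 118 CPM with hAMSC and 120.0 and 108 CPM with Veh in the lower-numbered set, a log2 difference of -0.29. The 6 Mcm subunits did not move as a unit: Mcm7, Mcm5, Mcm3 and Mcm6 lay below 0 and Mcm2 (0.08) and Mcm4 (0.38) above it.

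Both CDK inhibitors on the list were higher in the higher-numbered set, with no overlap. Cdkn2c, an inhibitor of Cdk4 and Cdk6, had 15.8 and 15.6 CPM with hAEC, 14.4 and 15.8 CPM with hAMSC and 14.2 and 12.9 CPM with Veh. Its lower-numbered libraries had 4.14 and 3.96 CPM with hAEC, 3.78 and 4.75 CPM with hAMSC and 4.13 and 3.59 CPM with Veh. Cdkn1b had 43.5 and 51.4 CPM with hAEC, 36.0 and 44.1 CPM with hAMSC and 36.5 and 44.4 CPM with Veh in the higher-numbered set. With 28.0 and 24.0 CPM with hAEC, 26.9 and 27.1 CPM with hAMSC and 24.2 and 21.5 CPM with Veh, Cdkn1b was lower in each lower-numbered library.

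Other genes of the pathway were taken from a list of 148, of which 145 were found and tested. Of these, 48 were higher in the higher-numbered set with no overlap (33.1%, against 24.8% of all genes) and 28 were lower (19.3%, against 30.4%). Of the 66 other genes of G2 and mitosis among them, 51 lay above 0 and 15 below (median log2 difference 0.68). Their summed level was 1020 to 1130 CPM in the higher-numbered set and 1101 to 1191 CPM in the lower-numbered set, so that the sums overlapped. Among the highest of the 145 were Kif2c, a kinesin that takes microtubules apart (2.34 to 3.74 CPM in the higher-numbered set and 0.513 to 0.986 CPM in the lower-numbered set), and E2f2, an activating E2F factor (6.37 to 7.32 CPM in the higher-numbered set and 1.06 to 1.76 CPM in the lower-numbered set). The repressive E2F factor E2f8 (1.15 to 2.64 CPM in the higher-numbered set and 0.366 to 0.639 CPM in the lower-numbered set), the centromere protein Cenpw (0.865 to 1.52 CPM in the higher-numbered set and 0.110 to 0.376 CPM in the lower-numbered set) and the kinesin Kif14 (0.652 to 1.67 CPM in the higher-numbered set and 0.172 to 0.366 CPM in the lower-numbered set) also stood higher. Lower in the higher-numbered set were Myc, a factor that drives entry into the cycle (24.6 to 37.2 CPM in the higher-numbered set and 122 to 142 CPM in the lower-numbered set), and 3 other CDK inhibitors. These were Cdkn1a, or p21 (31.5 to 42.4 CPM in the higher-numbered set and 62.5 to 84.9 CPM in the lower-numbered set), Cdkn2b, or p15 (2.54 to 3.42 CPM in the higher-numbered set and 10.6 to 14.0 CPM in the lower-numbered set), and the Cdkn2a locus (0.0343 to 0.251 CPM in the higher-numbered set and 0.532 to 0.964 CPM in the lower-numbered set), whose values rest on few counts. Zwint, a kinetochore protein, went against the 9 genes of the kinetochore and anaphase control, with 35.5 to 43.3 CPM in the higher-numbered set and 70.1 to 89.2 CPM in the lower-numbered set. Of the inhibitors named, Cdkn1b and Cdkn2c stood higher in the higher-numbered set and Cdkn1a, Cdkn2a and Cdkn2b lower. These last 3 were named because they were among the 5 pathway genes furthest lower in that set. Genes that separated the sets were common, at 24.8% (higher) and 30.4% (lower) of all genes tested.

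**Figure D2:**
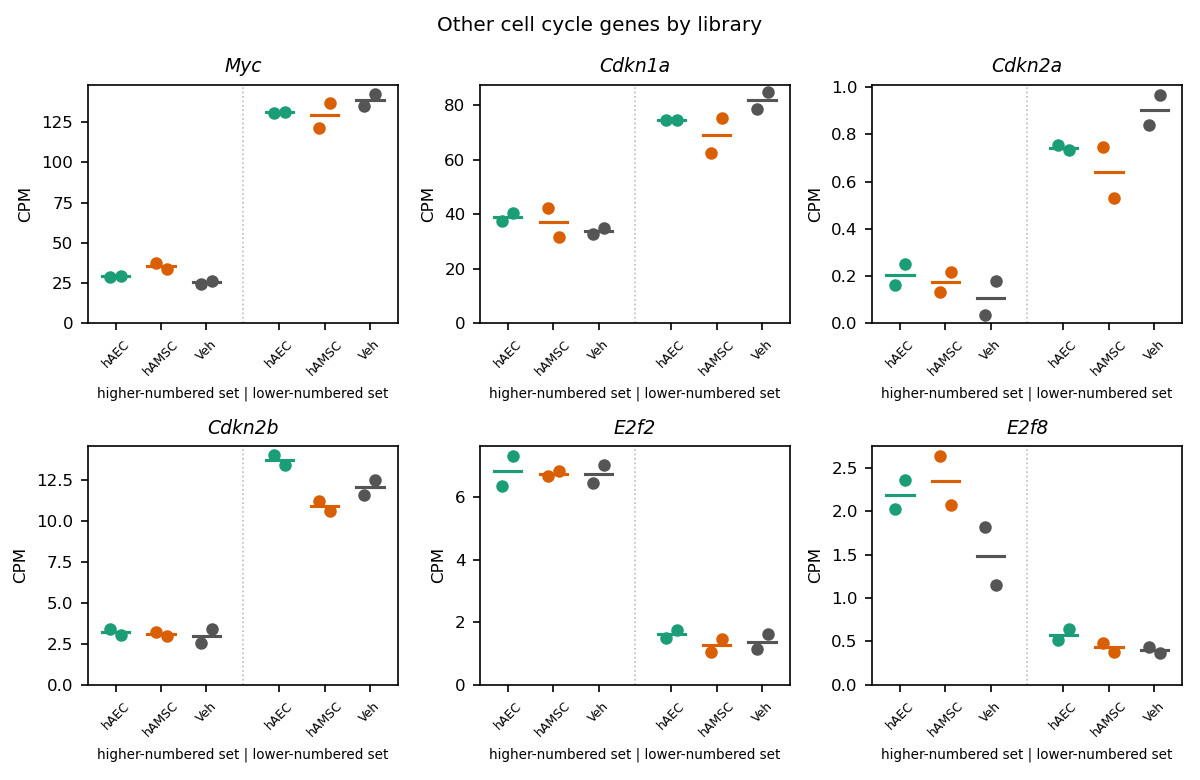
CPM (vertical axis, from 0) of 6 regulators outside the 55 genes in each of the 12 libraries; points are libraries, bars the mean of 2 libraries, left of the dotted line the higher-numbered set and right of it the lower-numbered set. Myc, Cdkn1a, Cdkn2a and Cdkn2b lie lower in the higher-numbered set, and E2f2 and E2f8 lie higher.

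Because the 24 mitotic genes among the 55 stood higher in 1 set, some of their promoters are shown, from RefSeq on the rat build GRCr8, as the 250 bases before the annotated start. The table held a promoter for 43 of 55 genes. Capitals mark matches, on either strand, to the CHR element (TTTGAA or TTCGAA), the CCAAT box (CCAAT) and an E2F core (GCGGGAA or GCGCGAA). In the Mki67 promoter a CHR match and a CCAAT match overlap by 1 base, and are printed as 1 run of capitals. The first 3 belong to mitotic genes higher in the higher-numbered set, and the last 2 to replication genes that passed with hAMSC in the higher-numbered set but not over both sets, as described below. Mki67 is at chr1:199952594-199952843 on the minus strand, Top2a at chr10:84473094-84473343 (minus), Cenpf at chr13:103760887-103761136 (minus), Mcm5 at chr19:13488563-13488812 (plus) and Lig1 at chr1:83242920-83243169 (plus).
Mki67: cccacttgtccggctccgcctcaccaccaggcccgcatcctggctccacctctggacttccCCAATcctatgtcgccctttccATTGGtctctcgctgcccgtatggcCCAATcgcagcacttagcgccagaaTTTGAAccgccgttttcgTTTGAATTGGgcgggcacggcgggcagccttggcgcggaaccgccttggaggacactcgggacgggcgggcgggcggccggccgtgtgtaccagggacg
Top2a: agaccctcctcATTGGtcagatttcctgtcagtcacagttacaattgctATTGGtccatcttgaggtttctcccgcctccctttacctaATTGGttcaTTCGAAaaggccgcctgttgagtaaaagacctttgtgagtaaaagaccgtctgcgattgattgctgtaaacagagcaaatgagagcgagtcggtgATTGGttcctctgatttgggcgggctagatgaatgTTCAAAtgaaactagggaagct
Cenpf: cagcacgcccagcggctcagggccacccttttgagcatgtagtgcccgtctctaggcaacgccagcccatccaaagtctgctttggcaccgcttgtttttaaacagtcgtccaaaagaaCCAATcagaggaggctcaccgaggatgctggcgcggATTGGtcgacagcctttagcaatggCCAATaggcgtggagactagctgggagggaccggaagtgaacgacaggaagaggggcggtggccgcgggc
Mcm5: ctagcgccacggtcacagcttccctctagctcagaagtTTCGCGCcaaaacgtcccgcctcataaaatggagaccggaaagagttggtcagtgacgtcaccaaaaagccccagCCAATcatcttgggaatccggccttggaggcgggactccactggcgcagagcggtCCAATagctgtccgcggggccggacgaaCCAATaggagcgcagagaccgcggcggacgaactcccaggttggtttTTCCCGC
Lig1: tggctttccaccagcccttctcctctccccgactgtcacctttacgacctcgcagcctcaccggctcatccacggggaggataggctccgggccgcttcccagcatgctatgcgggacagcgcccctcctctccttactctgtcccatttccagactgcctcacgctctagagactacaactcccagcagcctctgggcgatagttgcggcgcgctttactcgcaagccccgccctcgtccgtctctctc

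Mki67 and Top2a each held 2 CHR and 4 CCAAT matches, Cenpf held 3 CCAAT matches and no CHR, Mcm5 held 3 CCAAT and 2 E2F matches, and Lig1 held none of the letters searched. Of 20 mitotic genes with a promoter, 10 held a CHR (50%) and 16 a CCAAT box (80%). Of 23 genes of the other roles, 3 held a CHR (13%) and 13 a CCAAT box (56.5%). Counting genes whose sets did not overlap, a CCAAT box was in 76% of 25 higher in the higher-numbered set and 75% of 8 lower. The shares with a CCAAT box thus lay close together, but the second rests on 8 promoters. The CHR was in 40% and 25% of the same genes. No test was made of these shares by direction. Among all 33469 promoters of the table, 17.4% held a CHR and 34% a CCAAT box. That background counts every entry and was not limited to genes tested here, while each of the 43 genes counts with 1 promoter. An E2F core was in 1 of the 20 mitotic promoters, in 5 of 14 promoters of the replication fork group and in 4.48% of all promoters. A match of letters is a description and not a site.

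For co-culture with hAEC against vehicle, over both sets, none of the 55 genes passed the test. No gene of the 13539 passed (0%, adjusted p under 0.05 in edgeR's quasi-likelihood test, Benjamini-Hochberg), and 759 had an unadjusted p under 0.05. DESeq2 called 2 genes, and neither is among the 55. At an unadjusted p under 0.05 were 6 of the 55 genes, against 5.61% of all genes. The log2 difference, hAEC minus Veh, lay above 0 in 40 of 55 genes, against 48.5% of all genes tested, and its median was 0.06. Within a group and set, the median log2 level of the 55 genes had an SD of 0.06 between libraries. The 55 genes can move together within a library, so such counts are not 55 independent observations.

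The smallest p-values were those of Top2a, Ccnd2 and Cdk2. Top2a had a log2 difference of 0.37 ± 0.13 (SE; adjusted p = 0.861, edgeR). For Ccnd2 it was 0.22 ± 0.08 (SE; adjusted p = 0.881, edgeR). Cdk2, the kinase of the G1 to S transition, had -0.19 ± 0.07 (SE; adjusted p = 0.861, edgeR). None of the 3 passed. In the higher-numbered set Cdk2 had 12.5 and 13.0 CPM with hAEC, 15.6 and 14.9 CPM with hAMSC and 15.1 and 15.4 CPM with Veh, and in the lower-numbered set it had 10.4 and 10.6 CPM with hAEC, 10.1 and 10.9 CPM with hAMSC and 11.5 and 11.4 CPM with Veh, both hAEC libraries being below both Veh libraries in each set.

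None of the other 145 pathway genes passed with hAEC. The smallest p was that of Cks2, a CDK subunit, at 0.32 ± 0.11 (SE; adjusted p = 0.861, edgeR). Pola1, the catalytic subunit of polymerase alpha, had 0.16 ± 0.06 (SE; adjusted p = 0.881, edgeR). Ect2, which places the cleavage furrow, had 0.45 ± 0.18 (SE; adjusted p = 0.881, edgeR). These 3 lay above 0 without passing, as did Skp2, the ubiquitin ligase subunit that degrades Cdkn1b, at 0.19 ± 0.08 (SE; adjusted p = 0.881, edgeR). Zwint lay below 0, at -0.14 ± 0.06 (SE; adjusted p = 0.881, edgeR).

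With hAMSC against vehicle, over both sets, 32 genes passed (0.236% of 13539), and none of them was among the 55 or the other 145 pathway genes. The log2 difference, hAMSC minus Veh, lay above 0 in 49 of 55 genes, against 48.9% of all genes tested, with a median of 0.11. An unadjusted p under 0.05 was reached by 7 genes above 0, against 5.27% of all genes, and by 1 gene below 0 (Aurka), against 4.41%. The 7 were Ccnd1, Ccnd2, Lig1, Uhrf1, Rrm1, Top2a and Mki67.

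Ccnd2 came nearest to the threshold, with a log2 difference of 0.40 ± 0.08 (SE; adjusted p = 0.0807, edgeR). Ccnd1 had 0.36 ± 0.08 (SE; adjusted p = 0.11, edgeR). The value of Lig1 was 0.21 ± 0.05 (SE; adjusted p = 0.123, edgeR). In each set, both hAMSC libraries lay above both Veh libraries for all 3 genes. DESeq2 called them (adjusted p 0.000365 for Ccnd1, 0.00255 for Ccnd2 and 0.0121 for Lig1), limma voom called none of the 55, and edgeR with no expression filter called Ccnd2 and Lig1. Without hAMSC library 7, edgeR called Ccnd1 (adjusted p = 0.0218) and Ccnd2 (adjusted p = 0.0237).

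Of the other pathway genes described with hAMSC, Ncapg2, a condensin subunit, had 0.19 ± 0.06 (SE; adjusted p = 0.278, edgeR). For Zwint the value was -0.18 ± 0.06 (SE; adjusted p = 0.291, edgeR). These did not pass, and nor did Spc25, a kinetochore protein, at 0.77 ± 0.27 (SE; adjusted p = 0.358, edgeR), or Ect2, at 0.48 ± 0.18 (SE; adjusted p = 0.372, edgeR). Without hAMSC library 15, Zwint passed (log2 difference -0.24, adjusted p = 0.0203, edgeR).

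Within the higher-numbered set, hAMSC libraries carried more mRNA of the D cyclins Ccnd1 and Ccnd2, the helicase subunit Mcm5 and the ligase Lig1 than vehicle libraries. These contrasts, taken from a model of all 12 libraries with a term for each group in each set, were added after the data were seen. In that set 138 genes passed (1.02%), 116 of them higher (0.857%). Among the 55 genes, 4 rose and none fell: Ccnd1, Ccnd2, Mcm5 and Lig1. Both hAMSC libraries lay above both Veh libraries in 37 of 55 genes, against 22.1% of all genes, and below them in 1 (Aurka, a spindle pole kinase), against 14.9%. The median log2 difference was 0.21 over the 55 genes, and 50 of 55 lay above 0, against 48.4% of all genes. Replicate hAMSC libraries also differed over these genes, as given below, so these counts are not 55 independent observations.

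Ccnd1 (ENSRNOG00000020918), already given by library, rose 1.503-fold with hAMSC in this set, a log2 difference of 0.59 ± 0.07 (SE; adjusted p = 0.000453, edgeR). It was the only one of the 4 called in every fit that left out 1 library. Ccnd2 (ENSRNOG00000057710) rose 1.47-fold, a log2 difference of 0.56 ± 0.10 (SE; adjusted p = 0.0153, edgeR). It was no longer called without hAMSC library 15 (adjusted p = 0.144, edgeR), Veh library 19 (0.165) or Veh library 20 (0.0733). For both cyclins the hAEC libraries lay between the hAMSC and the Veh libraries or overlapped the hAMSC ones.

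Mcm5 (ENSRNOG00000014336), a subunit of the replicative helicase, had 9.16 and 12.5 CPM with hAEC, 16.1 and 12.8 CPM with hAMSC and 7.90 and 8.36 CPM with Veh in the higher-numbered set. It rose 1.76-fold with hAMSC, a log2 difference of 0.81 ± 0.15 (SE; adjusted p = 0.0175, edgeR). Mcm5 had 16.1 and 16.4 CPM with hAEC, 12.9 and 15.9 CPM with hAMSC and 16.1 and 16.6 CPM with Veh in the lower-numbered set, and hAMSC library 7 was the lowest there. The call in the higher-numbered set was lost without hAMSC library 15 (adjusted p = 0.192, edgeR), Veh library 19 (0.178) or Veh library 20 (0.140).

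Lig1 (ENSRNOG00000014193) rose 1.24-fold with hAMSC in the higher-numbered set, a log2 difference of 0.31 ± 0.07 (SE; adjusted p = 0.0326, edgeR). Its hAMSC and Veh values did not overlap, the nearest pair being hAMSC library 16 and Veh library 20. The call was lost without hAMSC library 15 (adjusted p = 0.311, edgeR), Veh library 17 (0.0602), 18 (0.0599) or 19 (0.361). With the 6 libraries of the set alone, edgeR called Ccnd1 (adjusted p = 0.00267) and Ccnd2 (0.0303) but not Mcm5 (0.0712) or Lig1 (0.137), and limma voom over all 12 libraries called only Ccnd1 of the 55.

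**Figure D3:**
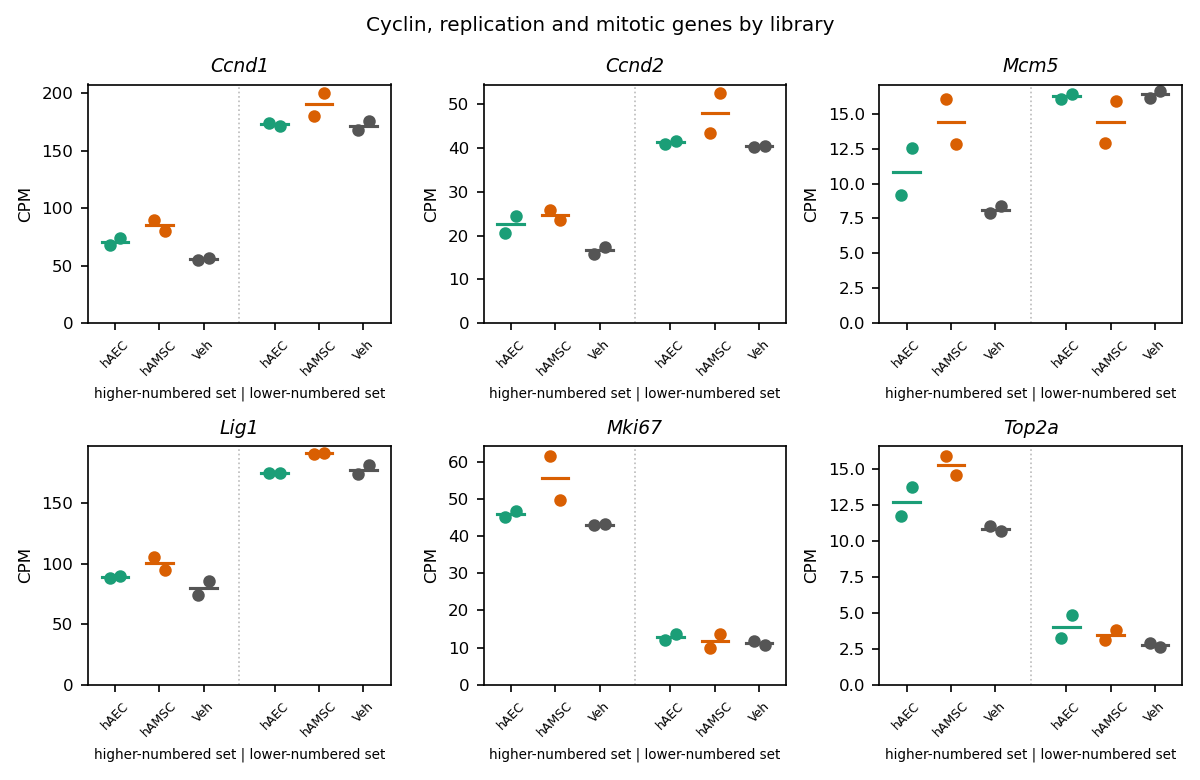
CPM (vertical axis, from 0) in each of the 12 libraries for the 4 genes that rose with hAMSC in the higher-numbered set and for Mki67 and Top2a; points are libraries, bars the mean of 2 libraries, left of the dotted line the higher-numbered set and right of it the lower-numbered set. In the higher-numbered set both hAMSC libraries lie above both Veh libraries in all 6 panels.

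Other genes of the replication fork and of mitosis were higher in these hAMSC libraries without passing. Of the 16 replication fork genes, 15 lay above 0, as did 7 of 8 genes of G2 and mitotic entry. So did all 9 of the kinetochore and anaphase control and all 7 of the spindle and cytokinesis. Over all genes tested, 48.4% lay above 0. The log2 differences of Mki67 and Top2a were 0.35 ± 0.12 (SE; adjusted p = 0.377, edgeR) and 0.47 ± 0.16 (SE; adjusted p = 0.315, edgeR). Cdc6, which loads the helicase at origins, had 1.60 and 1.63 CPM with hAMSC and 0.755 and 0.865 CPM with Veh, a log2 difference of 0.98 ± 0.30 (SE; adjusted p = 0.229, edgeR). Ccna2, the S and G2 cyclin, had 5.58 and 5.30 CPM with hAMSC and 3.23 and 2.52 CPM with Veh, with 0.90 ± 0.28 (SE; adjusted p = 0.222, edgeR). Neither passed, although the hAMSC and Veh libraries did not overlap in either gene. Rrm2, the regulated subunit of ribonucleotide reductase, had 2.60 and 4.34 CPM with hAEC, 4.21 and 3.85 CPM with hAMSC and 2.88 and 2.20 CPM with Veh in the higher-numbered set. There both hAMSC libraries lay above both Veh libraries, with a log2 difference of 0.65 ± 0.29 (SE; adjusted p = 0.531, edgeR), which did not pass. In the lower-numbered set Rrm2 had 1.54 and 2.23 CPM with hAEC, 2.49 and 2.06 CPM with hAMSC and 1.61 and 2.43 CPM with Veh. Its hAEC and Veh libraries overlapped in both sets. Uhrf1, which carries DNA methylation over to the new strand, had 13.0 and 10.6 CPM with hAMSC and 8.27 and 8.64 CPM with Veh, a log2 difference of 0.46 ± 0.14 (SE; adjusted p = 0.21, edgeR).

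For some genes of the cycle the estimate lay near 0. Pcna had a log2 difference of 0.05 ± 0.09 (SE; adjusted p = 0.942, edgeR) with hAMSC in the higher-numbered set. Rrm1 had 0.01 ± 0.06 (SE; adjusted p = 0.986, edgeR), and Ccnd3 -0.00 ± 0.07 (SE; adjusted p = 0.997, edgeR). Cdkn1b, the inhibitor, had -0.03 ± 0.13 (SE; adjusted p = 0.979, edgeR). Each of these 4 differences was smaller than its standard error. The helicase subunit Mcm2 had 41.3 and 47.2 CPM with hAEC, 50.9 and 44.7 CPM with hAMSC and 40.3 and 41.3 CPM with Veh in the higher-numbered set and 40.1 and 43.7 CPM with hAEC, 41.0 and 45.2 CPM with hAMSC and 45.03 and 44.2 CPM with Veh in the lower-numbered set, and its hAMSC value in the first was 0.21 ± 0.08 (SE; adjusted p = 0.414, edgeR).

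Of the other pathway genes, 2 of 145 rose with hAMSC in the higher-numbered set (1.38%, against 0.857% of all genes) and none fell. Myc had 28.7 and 29.7 CPM with hAEC, 37.2 and 33.9 CPM with hAMSC and 24.6 and 26.1 CPM with Veh there, and its log2 difference was 0.47 ± 0.07 (SE; adjusted p = 0.00243, edgeR). Myc had 131 and 132 CPM with hAEC, 122 and 137 CPM with hAMSC and 135 and 142 CPM with Veh in the lower-numbered set, with no such order. Lmnb1, a lamin of the nuclear envelope that was named here after its values were seen, had 10.6 and 9.59 CPM with hAEC, 12.9 and 10.8 CPM with hAMSC and 7.76 and 7.67 CPM with Veh in the higher-numbered set, with 0.60 ± 0.13 (SE; adjusted p = 0.0393, edgeR). Myc lost its call without Veh library 19 (adjusted p = 0.0532, edgeR), and Lmnb1 was not called with the 6 libraries of the set alone (0.0934) or by limma voom (0.131). Lmnb1 also lost its call without hAMSC library 15 (adjusted p = 0.340, edgeR) or without Veh library 17 (0.0622), 18 (0.0611), 19 (0.210) or 20 (0.260).

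Marker sums of some other cell types also differed with hAMSC in the same set, and not all in one direction. The 10 endothelial markers, all above 0, summed to 210 to 225 CPM with hAEC, 288 to 352 CPM with hAMSC and 223 to 226 CPM with Veh. In the lower-numbered set they summed to 505 to 524 CPM with hAEC, 487 to 618 CPM with hAMSC and 566 to 606 CPM with Veh. All 10 lay above 0 for hAMSC against Veh in the higher-numbered set and 3 passed, among them Lyve1, a receptor of sinusoidal endothelium, with 10.7 and 7.91 CPM with hAMSC and 2.47 and 2.95 CPM with Veh, a log2 difference of 1.77 ± 0.25 (SE; adjusted p = 0.0194, edgeR). The 12 stellate cell markers summed to 25.3 to 26.4 CPM with hAMSC and 22.8 to 23.2 CPM with Veh in that set. There the 7 hepatocyte markers summed to 684 to 694 CPM with hAEC, 719 to 812 CPM with hAMSC and 661.8 to 668.5 CPM with Veh. For hAMSC against Veh, 2 of the 4 hepatocyte markers tested lay above 0 and 2 below. The part of these markers' cells in the higher cyclin and replication mRNA was not tested.

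In the lower-numbered set none of the 55 genes passed with hAMSC, in edgeR, DESeq2 or limma voom, and 11 genes passed in all in edgeR (0.0812%). An unadjusted p under 0.05 was reached by 4 of the 55, against 11.9% of all genes. The log2 difference lay above 0 in 28 of 55 genes, against 48.4% of all genes, with a median of 0.00. Both hAMSC libraries lay above both Veh libraries in 10 of 55 genes, against 19.4% of all genes, and below in 7, against 25.2%. Ccnd1 had 0.16 ± 0.06 (SE; adjusted p = 0.334, edgeR) and Ccnd2 0.27 ± 0.10 (SE; adjusted p = 0.302, edgeR). Melk, a kinase of dividing cells, lay lowest, with 1.09 and 1.28 CPM with hAEC, 0.687 and 1.09 CPM with hAMSC and 1.64 and 1.66 CPM with Veh and a log2 difference of -0.88 ± 0.28 (SE; adjusted p = 0.251, edgeR), which did not pass. Mcm5 lay below 0 here, at -0.17 ± 0.14 (SE; adjusted p = 0.687, edgeR).

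**Figure D4:**
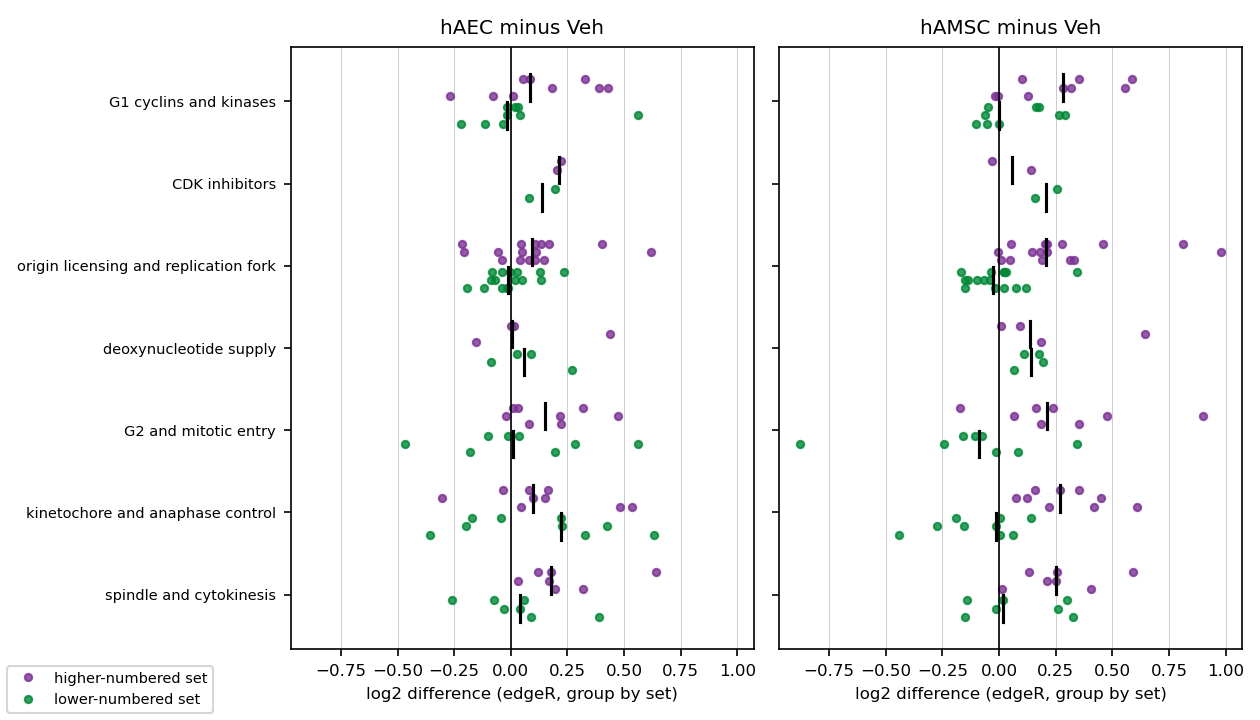
Log2 difference of each of the 55 genes (1 point per gene and set) for hAEC minus Veh and hAMSC minus Veh, by role (vertical axis), in the higher-numbered and the lower-numbered set; black bars are medians, from the 12-library model with a term for each group in each set. For hAMSC in the higher-numbered set 50 of 55 points lie above 0, and in the lower-numbered set 28 of 55.

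Whether the hAMSC difference itself differed between the sets was tested as an interaction. No gene of the 55 passed, and 27 genes passed in all (0.199%). Above 0, meaning a larger hAMSC minus Veh difference in the higher-numbered set, were 44 of 55 genes, against 50.3% of all genes tested. An unadjusted p under 0.05 was reached by 11 of the 55 genes, all above 0, against 5.58% of all genes. Ccnd1 and Mcm5 came nearest, at 0.43 ± 0.09 (SE; adjusted p = 0.0706, edgeR) and 0.98 ± 0.21 (SE; adjusted p = 0.0706, edgeR). Mcm6, another helicase subunit, had 0.32 ± 0.11 (SE; adjusted p = 0.331, edgeR), with 34.8 and 32.3 CPM with hAEC, 38.4 and 35.5 CPM with hAMSC and 31.7 and 32.7 CPM with Veh in the higher-numbered set and 40.5 and 42.2 CPM with hAEC, 37.1 and 42.4 CPM with hAMSC and 45.5 and 42.8 CPM with Veh in the lower-numbered set. Ccnd1 and Mcm5 passed without hAMSC library 8 (adjusted p 0.0312 for both, edgeR) or without hAMSC library 16 (0.0240 for both), and DESeq2 called both with all libraries. Of the other pathway genes only Myc passed, at 0.56 ± 0.09 (SE; adjusted p = 0.0198, edgeR), and it did not pass under limma voom (adjusted p = 0.119) or in the fits that left out hAMSC library 7 or 15 or any 1 of the 4 Veh libraries (0.0551 to 0.120).

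The replicate libraries were not alike over these genes. In the higher-numbered set, hAMSC library 15 lay above hAMSC library 16 in 43 of 55 genes, against 53.6% of all genes tested. In the lower-numbered set, hAMSC library 8 lay above hAMSC library 7 in 46 of 55, against 54.7%. The Veh pairs were nearer to even, with library 18 above 17 in 28 of 55 (56.1% of all genes) and library 19 above 20 in 24 of 55 (45.5%). Of the hAEC pairs, library 12 lay above 11 in 36 of 55 (49.9%) and library 4 above 3 in 33 of 55 (48.2%). No test was made of these shares.

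For hAEC in the higher-numbered set, none of the 55 genes or of all genes passed in edgeR (0%), while 738 genes had an unadjusted p under 0.05 and DESeq2 called 24 genes, 1 of them among the 55 (Ccnd1, adjusted p = 0.0112). The hAEC comparison uses the same Veh libraries as the hAMSC comparison, so the 2 are not independent. The log2 difference lay above 0 in 45 of 55 genes, against 49% of all genes, with a median of 0.11. Both hAEC libraries lay above both Veh libraries in 23 of 55 genes, against 20.1%, and below in 4 (Cdk2, E2f1, Gins2 and Birc5), against 14.5%. Ccnd1 had 0.33 ± 0.07 (SE; adjusted p = 0.26, edgeR), Ccnd2 0.43 ± 0.10 (SE; adjusted p = 0.426, edgeR) and Mcm5 0.40 ± 0.15 (SE; adjusted p = 0.897, edgeR). In the lower-numbered set 28 of 55 genes lay above 0, against 49.4% of all genes.

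The interaction of hAEC with the sets gave no call among the 13539 genes (731 at an unadjusted p under 0.05; DESeq2 called 23, none of them among the 55). The smallest p-values of the 55 genes were those of Ccnd1, at 0.31 ± 0.09 (SE; adjusted p = 0.766, edgeR), and Ccnd2, at 0.39 ± 0.14 (SE; adjusted p = 0.866, edgeR). Cenpa, the histone that marks centromeres, had 0.89 ± 0.41 (SE; adjusted p = 0.918, edgeR). Its values were 3.41 and 3.77 CPM with hAEC, 3.51 and 4.10 CPM with hAMSC and 2.54 and 2.38 CPM with Veh in the higher-numbered set and 1.64 and 1.18 CPM with hAEC, 1.72 and 0.907 CPM with hAMSC and 1.57 and 2.06 CPM with Veh in the lower-numbered set, where the hAEC and Veh libraries overlapped.

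Between the 2 amniotic cell types, over both sets, 3 genes passed (0.0222%), none of them among the 55 or the other 145 pathway genes. The log2 difference, hAEC minus hAMSC, lay above 0 in 14 of 55 genes, against 50% of all genes, with a median of -0.05. Lig1 had -0.15 ± 0.05 (SE; adjusted p = 0.515, edgeR). Aurka had 0.20 ± 0.07 (SE; adjusted p = 0.531, edgeR), with 28.0 and 23.6 CPM with hAEC, 22.2 and 22.6 CPM with hAMSC and 25.8 and 24.2 CPM with Veh in the higher-numbered set and 16.9 and 14.8 CPM with hAEC, 13.6 and 13.9 CPM with hAMSC and 14.4 and 16.6 CPM with Veh in the lower-numbered set. The value of Ccnd1 was -0.20 ± 0.08 (SE; adjusted p = 0.631, edgeR). Of the other pathway genes, the smallest p-values were those of Stmn1, Espl1, Cks2, Kif18a and Pkmyt1. Stmn1, which binds free tubulin, had -0.20 ± 0.08 (SE; adjusted p = 0.618, edgeR). Espl1, the separase that cuts cohesin, had -0.55 ± 0.23 (SE; adjusted p = 0.718, edgeR). Both lay below 0 without passing. Cks2 had 0.27 ± 0.11 (SE; adjusted p = 0.724, edgeR). The kinesin Kif18a had -0.56 ± 0.25 (SE; adjusted p = 0.749, edgeR). Pkmyt1, a kinase that inhibits Cdk1, had 0.17 ± 0.08 (SE; adjusted p = 0.754, edgeR). None of the 5 passed.

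In the higher-numbered set 74 genes passed between hAEC and hAMSC (0.547%), none of them among the 55. There 12 of 55 genes lay above 0, against 50.6% of all genes, and both hAEC libraries were below both hAMSC libraries in 22 of 55, against 19.3% of all genes. All 16 genes of the replication fork lay below 0, with a median of -0.15. Both hAEC libraries were above both hAMSC libraries in Aurka and Kif20a, 2 of 55, against 15.2%. The difference of Ccnd1 was -0.26 ± 0.06 (SE; adjusted p = 0.117, edgeR).

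The interaction between hAEC, hAMSC and set gave no call among the 13539 genes (704 at an unadjusted p under 0.05; DESeq2 called 33, none of them among the 55). The smallest p-values among the 55 were those of Mcm5, at -0.57 ± 0.21 (SE; adjusted p = 0.908, edgeR), and of Birc5 (survivin), of the chromosomal passenger complex, at -0.93 ± 0.35 (SE; adjusted p = 0.932, edgeR). Cenpf followed, at -0.88 ± 0.34 (SE; adjusted p = 0.932, edgeR). Birc5 had 2.64 and 2.39 CPM with hAEC, 2.84 and 3.96 CPM with hAMSC and 2.95 and 3.21 CPM with Veh in the higher-numbered set. It had 1.71 and 1.85 CPM with hAEC, 1.43 and 1.06 CPM with hAMSC and 1.57 and 1.496 CPM with Veh in the lower-numbered set. The hAEC libraries were thus the lowest for Birc5 in the higher-numbered set and the highest in the lower-numbered set.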

How the data were processed

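Polyadenylated RNA of 12 libraries, 4 per group, was measured. The authors deposited expected counts per gene. The labels' protocols name the RNAqueous-Micro kit for RNA and a TruSeq stranded mRNA protocol for libraries. The submitters' processing notes name the tools Trim Galore, FastQC, RSEM, STAR and limma, and rn6 and Rnor_6.0 as builds, without versions. RSEM shares reads among similar genes, so close paralogs carry a further uncertainty.

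Here the expected counts were rounded and tested with edgeR 4.0.16 (R 4.3.3): filterByExpr kept 13539 genes, TMM factors ran from 0.973 to 1.03, and the robust quasi-likelihood test with Benjamini-Hochberg adjustment (threshold 0.05, two-sided) had terms for group and library set. The biological coefficient of variation was 9.92%, against 38.9% with group alone. Interactions and contrasts within a set came from a group-by-set model. SE is the log2 difference over the root of F. CPM are counts per 1000000 of each library's total, with no error beyond counting taken in. The scripts were tested on simulated data. No 2 libraries agreed within sampling noise. Other settings were DESeq2 1.42.0, limma voom 3.58.1, other scaling, other filters and leaving out libraries.

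The genes, the lists, the library sets and the tests were chosen with earlier results of these data known. Values by library are given for genes that passed, the 3 of the 55 with the smallest p in each comparison, the 5 furthest apart between sets in each direction, and 11 genes always named. Cdc6, Ccna2, Uhrf1, Melk and the marker Lyve1 were chosen after their values were seen. Promoters are from RefSeq (GRCr8), matched by symbol; genes without one were Ccnd1, Ccnd2, Cdk6, Ccne2, E2f1, Cdc6, Mcm4, Rrm2, Ccna2, Aurkb, Ube2c and Tpx2. Of the pathway list, Cdkn2d, Cdca5 and Chek1 were not analysed here, and the results of 1 other gene of that list are not reported here.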

Additional observations from a re-analysis of the deposited data

Results flagged for a closer look

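Myc was picked out because its hAMSC minus Veh difference was larger in the higher-numbered than in the lower-numbered library set, by 0.56 on the log2 scale (SE 0.09, adjusted p = 0.0198, edgeR). The call was lost under limma voom (adjusted p = 0.119) and, as given above, in several fits that left out 1 library. Endothelial marker sums were higher with hAMSC in the same set, and their part in the Myc difference was not tested.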

How the results depend on the processing

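Signs were checked only for the genes named by the rules here, and no called result of theirs changed sign under any setting tried. Estimates that were not called did change sign. For the comparisons over both sets these were 84 of 1623 values under other settings and 109 of 1128 with 1 library left out. The signs of the other called genes were not checked. Called genes with hAMSC against Veh (32) became 52 with no filter, 155 with DESeq2, 12 without the robust option, 0 with group alone, 9 with the 2 groups alone, and 86 and 94 with the lower-numbered and higher-numbered sets alone. Of the 55 members, 2 were called there with no filter, 3 with DESeq2 and 2 with the higher-numbered set alone, against 0. For hAEC against hAMSC (3), 26 were called with no filter, 80 with DESeq2, 0 without the robust option or with group alone, and 1 and 58 with the lower-numbered and higher-numbered sets alone. For hAEC against Veh (0), 2 were called with DESeq2, 10 with the 2 groups alone, and 1 and 6 with those sets alone.

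For interactions, limma voom gave 4 genes for hAMSC against Veh, and DESeq2 gave 113 (2 members), 23 for hAEC against Veh and 33 for hAEC against hAMSC. Within sets, with the 6 libraries alone, hAEC against Veh gave 1 (lower-numbered) and 6 (higher-numbered) genes. For hAMSC against Veh there were 86 genes in the lower-numbered set. In the higher-numbered set the total was the one given above for that set alone, with 2 members in it. For hAEC against hAMSC 1 gene was called in the lower-numbered set. In the higher-numbered set limma voom gave 53 genes (1 member) for hAMSC against Veh and 39 for hAEC against hAMSC. DESeq2 gave 14, 125 and 17 in the lower-numbered set for hAEC against Veh, hAMSC against Veh and hAEC against hAMSC, and in the higher-numbered set 24 (1 member) for hAEC against Veh and 125 for hAEC against hAMSC.

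Leaving out 1 library, genes called ranged from 8 to 153 for hAMSC against Veh (members 0 to 2), and from 0 to 50 for hAEC against hAMSC. For the interactions they ranged from 0 to 158 for hAMSC against Veh (members 0 to 2), 0 to 3 for hAEC against Veh and 0 to 27 for hAEC against hAMSC. In the higher-numbered set they ranged from 47 to 162 for hAMSC against Veh (members 1 to 4), 0 to 8 for hAEC against Veh and 27 to 107 for hAEC against hAMSC, and in the lower-numbered set from 0 to 50, 0 to 3 and 0 to 2. The causes were not tested.

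No paired analysis was made, because the labels do not say which libraries shared a rat or a culture. With 2 libraries per group in each set, calls within a set rest on few libraries, and the lowest counts, near 12 per library, limit the mitotic genes in the lower-numbered set. With CPM scaled by TMM, both hAMSC libraries lay above both Veh libraries in 33 of 55 members in the higher-numbered set (18.7% of all genes tested), against 37 unscaled (22.1%).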
